A study of Homo sapiens with 4 samples.

Results

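The genes described here are 49 interferon-stimulated genes (ISGs), chosen by name from the genes whose transcription type I interferon is known to raise, and all 49 were among the 50868 genes in the deposited tables. They were followed in 4 RNA-seq libraries of Jurkat cells, with 1 library per condition. Jurkat is an established line of human leukemic T cells, here of wild-type genotype per the labels. All cells had 24 h of treatment. The vehicle control received DMSO. A second culture received 0.5 μM JQ1, a small molecule that occupies the acetyl-lysine pocket of the BET bromodomain proteins. The other two conditions combined DMSO or 0.5 μM JQ1 with 150 ng/ml phytohemagglutinin (PHA), a plant lectin that crosslinks surface receptors and activates T cells. No interferon was added in any condition named by the labels. Because each condition is 1 library of 1 cell line, differences could not be set against a spread between replicates, and neither tests nor p-values are given.

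As background, cells make type I interferon when helicases of the RIG-I family or other sensors detect viral nucleic acid. Secreted interferon binds IFNAR1 and IFNAR2, the kinases JAK1 and TYK2 become active, and the transcription factor complex ISGF3, of which STAT2 and IRF9 are subunits, binds the interferon-stimulated response element (ISRE) in ISG promoters. The products block viral entry, degrade or edit RNA, stop translation, conjugate the ubiquitin-like protein ISG15, or raise the sensors and transcription factors of the pathway itself. Many ISGs also have a basal level in cells that have met no virus.

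Among members with a mean FPKM of at least 1, JQ1-treated cells had a higher level of STAT2, by more than 2-fold without and with PHA. Lower by more than 2-fold in both were GBP1, OAS3, PARP14, IFIH1, XAF1, USP18, BST2 and IFI44. With a pseudocount of 1 in place of 0.1, IFI44 in both comparisons, XAF1 without PHA and IFIH1 with PHA fell short of 2-fold. The fall was 5.82-fold for GBP1 without PHA and 7.12-fold with PHA. Many other ISGs did not follow it. IFIT1, IFIT3, ISG15, HERC5, IFI6, RSAD2 and ADAR were not past 2-fold in either comparison, and ISG15, HERC5 and ADAR had slightly higher shares of the counts with JQ1. With PHA, the shares of IFIT1 and RSAD2 were higher too. Among members under a mean FPKM of 1, with the pseudocount of 0.1, IRF7 was past 2-fold higher in both comparisons and MX2 without PHA only. OAS1, OASL, HERC6 and IFITM3 were past 2-fold lower in both, and TRIM22, ISG20 and GBP2 with PHA only. By its share of the counts, TRIM22 was also 2.48-fold lower without PHA. GBP2 had 1 count in each library without PHA, so no fall could be seen there. PHA moved none of the 34 members with a mean FPKM of at least 1 past 2-fold. Of the members under that mean, MX2 and GBP2 were past 2-fold higher with PHA in DMSO-treated cells. In bulk RNA, fewer cells with a transcript and less of it per cell cannot be told apart.

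The promoters are shown first, because many members share a short sequence there. RefSeq promoter windows on GRCh38.p14, from 250 bases before to 50 bases after a start site, were matched by symbol for 37 of the 49 members, some with several start sites, which gave 49 windows. The ISRE core was searched as GAAANNGAAA on either strand (TTTCNNTTTC when read on the other strand), with overlapping matches allowed. It was present in 28 of the 49 member windows (57.1%) and in 1255 of all 35116 windows (3.57%). By gene, 24 of 37 members (64.9%) had it in at least 1 window, against 4.38% of all genes with a window. The gamma-activated site, the element of the interferon gamma response, searched as TTCNNNGAA, which reads the same on both strands, was in 11 member windows (22.4%) and in 7.66% of all windows. In 6 member windows both motifs were present, and in 5 of these a match to one overlapped a match to the other.

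Printed here, 5′ to 3′ on the strand of the gene, are stretches of 30 bases around the first ISRE core match in members that reached a mean FPKM of 1 and were past 2-fold downward in at least 1 JQ1 comparison. XAF1, whose windows held no core, and USP18 and OAS2, which had no window, are absent for that reason. DTX3L, short of 2-fold, is added because it shares its stretch with PARP9. Capitals mark core matches, and runs longer than 10 capitals are overlapping matches.
GBP1, chr1:89065316-89065345, minus strand: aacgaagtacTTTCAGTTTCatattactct
OAS3, chr12:112938321-112938350, plus strand: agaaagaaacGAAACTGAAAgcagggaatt
IFIH1, chr2:162318824-162318853, minus strand: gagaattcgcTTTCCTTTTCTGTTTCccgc
PARP14, chr3:122680800-122680829, plus strand: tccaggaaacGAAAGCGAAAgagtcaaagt
BST2, chr19:17405741-17405770, minus strand: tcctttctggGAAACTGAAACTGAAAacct
IFI44, chr1:78649761-78649790, plus strand: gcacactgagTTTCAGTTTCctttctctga
IFITM1, chr11:313990-314019, plus strand: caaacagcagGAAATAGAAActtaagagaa
PARP9, start site 2, chr3:122564322-122564351, minus strand: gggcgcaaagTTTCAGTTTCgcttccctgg
DTX3L, chr3:122564322-122564351, plus strand: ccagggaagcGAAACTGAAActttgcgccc

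PARP9 and DTX3L, whose proteins form a complex, are transcribed in opposite directions from neighbouring starts, and their stretches are the same 30 base pairs read from either strand. Counted from the start site, the first match began at position -127 in GBP1, -143 in OAS3, -159 in IFIH1, -130 in BST2 and -29 in PARP14. It began at -40 in IFITM1, -41 in PARP9, -6 in DTX3L and, depending on the start site, -18 or -60 in IFI44. Nearer the start, further matches began at -12 in OAS3, -21 in IFIH1 and -6 in IFITM1.

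The next stretches are examples from the other members with the core, and none of them passed 2-fold in either JQ1 comparison. The sets do not differ in direction throughout, since IFIT5 was lower without PHA by its interval. EIF2AK2, which has the core and is not printed, was lower in both comparisons short of 2-fold. In IFIT1, the capitals at the 3′ end open a second match that runs past the stretch.
ISG15, chr1:1013374-1013403, plus strand: catgcctcggGAAAGGGAAACCGAAActga
HERC5, chr4:88456984-88457013, plus strand: ctcattacagTTTCCTTTTCCTTTTCgatt
IFIT1, chr10:89392497-89392526, plus strand: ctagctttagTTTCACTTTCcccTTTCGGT
IFIT5, chr10:89414513-89414542, plus strand: ttctattaagTTTCGGTTTCtgaagcttac
PARP12, chr7:140062942-140062971, minus strand: ccggggccgcTTTCGGTTTCgtttcccgcc

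STAT2 was the one member past 2-fold upward with JQ1 among those that reached a mean FPKM of 1. XAF1, whose windows also held no core, was past 2-fold downward in both JQ1 comparisons. The full window of STAT2 held neither motif and is printed without capitals.
STAT2, chr12:56360058-56360357, minus strand: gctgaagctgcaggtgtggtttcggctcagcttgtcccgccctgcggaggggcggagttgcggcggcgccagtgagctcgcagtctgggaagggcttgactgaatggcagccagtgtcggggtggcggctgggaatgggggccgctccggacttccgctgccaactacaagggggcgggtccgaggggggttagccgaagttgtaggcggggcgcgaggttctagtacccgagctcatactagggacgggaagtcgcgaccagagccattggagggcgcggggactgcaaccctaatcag

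Both deposited units are used. FPKM, the reads on a gene per length and per depth, compares genes with each other, and its log2 ratio, computed with a pseudocount of 0.1, decides whether a gene is past 2-fold. The count share, a gene's reads over the library's total, gives for single genes a fold, a log2 ratio and its 95% exact (Clopper-Pearson) interval. Intervals cover counting error only. Wherever 4 values follow a gene, they stand for DMSO, then JQ1, then DMSO + PHA, then JQ1 + PHA. The unstimulated pair is JQ1 with DMSO as its control, and the PHA pair is the same contrast in PHA-treated cells. Gene positions are those of the deposited tables on GRCh38. Totals lay between 18620954 and 19685401 counts, and 3 counts, taken as the floor of detection, correspond to 0.152 to 0.161 CPM (counts scaled to the library total). The T-cell markers CD3D, CD3E, CD3G, CD2, CD5, CD7, CD28, LCK and PTPRC were at an FPKM of at least 1 in every library, 9 of 9. Their FPKM summed to 377, 258, 460 and 268, so this sum was also lower with JQ1, and its part in the ISG differences was not tested. Not every marker followed the sum, since PTPRC had an FPKM of 70.7, 112, 123 and 104, higher with JQ1 without PHA. No marker of plasmacytoid dendritic cells (0 of 3) or monocytes (0 of 5) reached an FPKM of 1 in every library. Their summed FPKM stayed between 0 and 0.0202 and between 0.0433 and 0.155. LILRA4, IL3RA, CLEC4C, FCGR3A, CSF1R and LYZ were at or under 3 counts in every library. For NK cells it was 0 of 4 markers, with sums of 0.773, 0.257, 2.00 and 0.281 in the libraries. For B cells it was 1 of 4, CD79A, with an FPKM of 7.48, 1.06, 6.33 and 1.01. The stromal or epithelial sum, 0 of 4 markers, lay between 0.377 and 0.675.

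**Figure D1:**
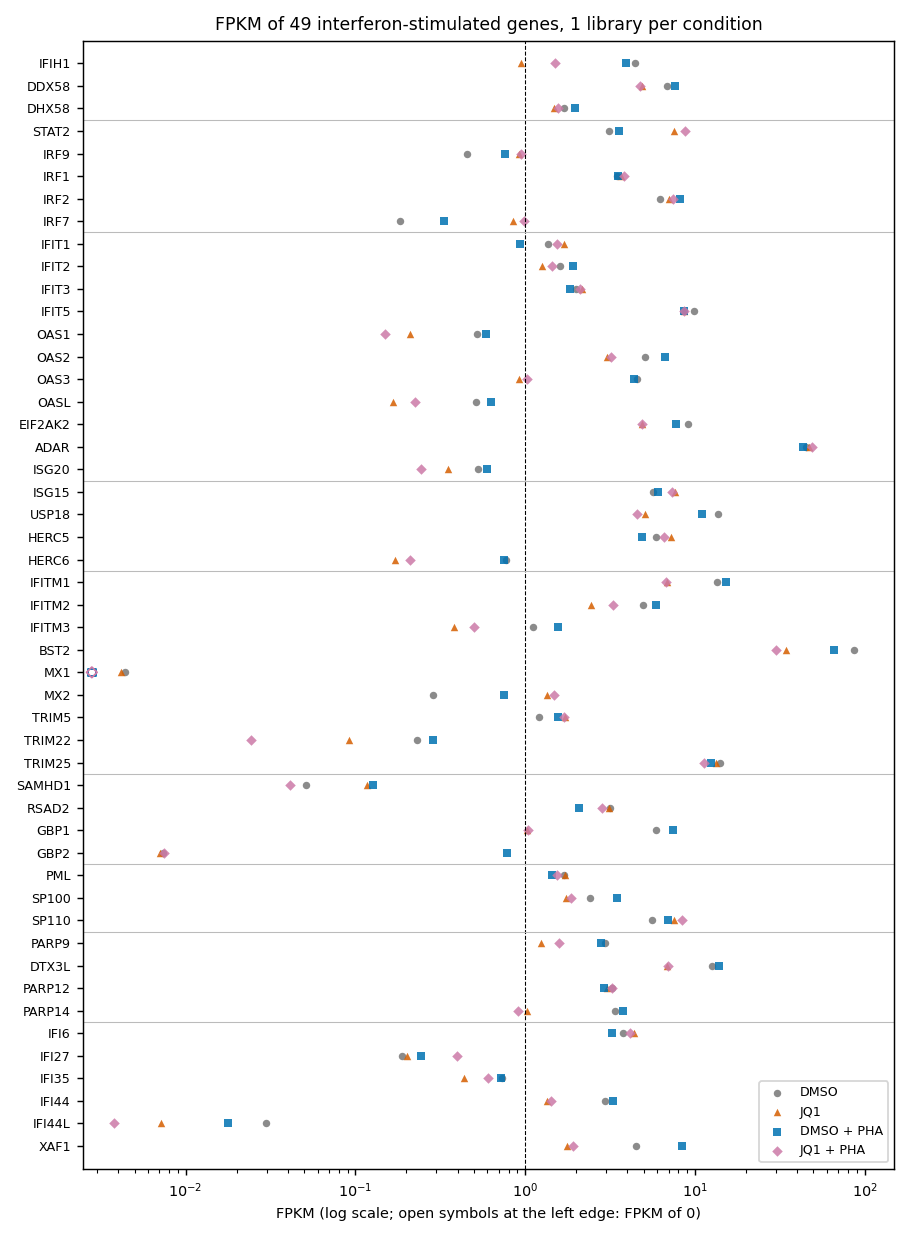
FPKM of the 49 genes (horizontal axis, log scale) in the 4 libraries, grouped by role from RNA sensors at the top to other induced proteins at the bottom, with open symbols at the left edge for an FPKM of 0. BST2 and ADAR sit farthest to the right, and for GBP1, OAS3, PARP14 and XAF1 both JQ1 libraries lie to the left of both DMSO libraries.

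Of the 49 members, 34 reached a mean FPKM of 1 and 15 did not. Among the 34, IFIH1, IFIT1, OAS3 and PARP14 were under an FPKM of 1 in at least 1 library. MX1 was at the floor, with 1, 1, 0 and 0 counts. SAMHD1, with 5, 12, 13 and 4 counts, and IFI44L, with 8, 2, 5 and 1, stayed under 20 counts. These 3 are too low to compare. In the DMSO library BST2 had the highest level of the members per length, followed by ADAR, TRIM25, USP18 and IFITM1. With JQ1 the first was ADAR, ahead of BST2. The members together made up 2120, 1783, 2163 and 1817 CPM in the 4 libraries.

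JQ1 was compared with DMSO first without PHA, the question being which of these genes differ when BET bromodomains are occupied in cells that met no stimulus. Of the 34 members, 1 was higher and 9 were lower by 2-fold or more with JQ1 (2.94% and 26.5%). By the same rule 5.22% of the 11503 genes that reached a mean FPKM of 1 were higher and 8.65% lower. The median log2 ratio of FPKM was -0.26 for the members and -0.01 for all genes. By the intervals of the count shares, 6 of the 34 were higher, 19 lower and 9 not distinguishable, beside 36.9% higher and 38.7% lower of all genes. The downward share past 2-fold was thus above the background, while the upward one, a single gene, was near it.

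When both libraries had PHA, 1 member was higher with JQ1 and 10 were lower past 2-fold (2.94% and 29.4%), against 3.69% and 8% of all genes. The median was -0.36 for the members and -0.02 for all genes. By intervals, 7 were higher, 19 lower and 8 not distinguishable, with 34.6% and 38.2% of all genes beside them. Past 2-fold in both comparisons were 8 members downward, where 5.42% of all genes were, and STAT2 upward, where 2.16% were. Intervals excluded 0 in both comparisons for 18 members downward and 5 upward, compared with 30.8% and 28.0% of all genes. These JQ1 comparisons share no library.

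**Figure D2:**
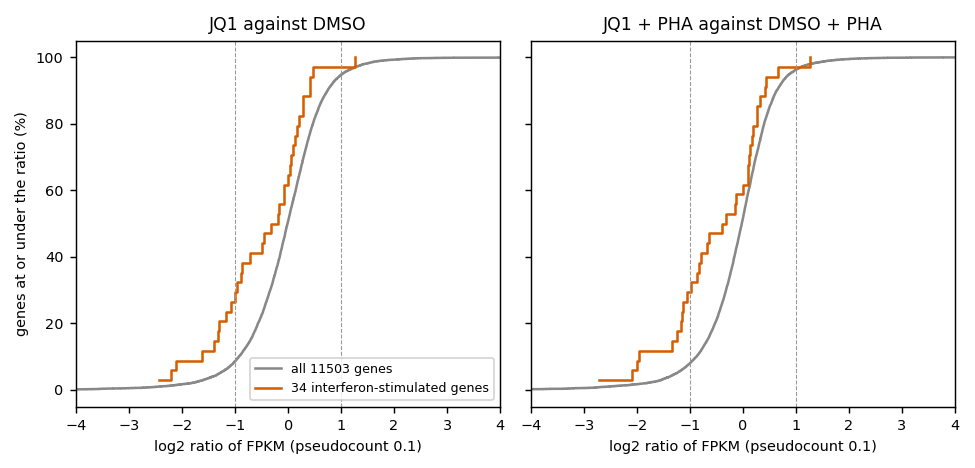
Cumulative share of genes (vertical axis, %) at or under each log2 ratio of FPKM (horizontal axis) for the 34 members and all 11503 genes, without PHA on the left and with PHA on the right, with dashed lines at 2-fold. The member line lies above that of all genes across the negative ratios, with medians of -0.26 against -0.01 and -0.36 against -0.02.

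Among the sensors of viral RNA, IFIH1 (MDA5, ENSG00000115267, chr2:162267079-162318703), which binds long double-stranded RNA, fell with JQ1. Its FPKM values were 4.43, 0.94, 3.92 and 1.5, from 473, 105, 438 and 158 counts. Both JQ1 libraries were below both DMSO libraries. The log2 ratio was -2.24 (-2.56 to -1.93) in the unstimulated pair and -1.39 (-1.66 to -1.13) in the PHA pair. DDX58 (RIG-I), which recognises the triphosphate end of viral RNA, had an FPKM of 6.86, 4.87, 7.66 and 4.77. DHX58 (LGP2), the regulator of the other two sensors, had 1.69, 1.49, 1.97 and 1.55. DDX58 was lower in both JQ1 libraries than in either DMSO library without passing 2-fold, and DHX58 showed the same order, with an interval that included 0 without PHA.

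Among the transcription factors, nothing fell past 2-fold with JQ1. STAT2 (ENSG00000170581, chr12:56341597-56360155), the ISGF3 subunit that carries the activation domain, had FPKM values of 3.11, 7.57, 3.57 and 8.74. It rose with JQ1 by a log2 ratio of 1.28 (1.15 to 1.42) in the unstimulated pair and 1.29 (1.17 to 1.42) in the PHA pair. Both JQ1 libraries were above both DMSO libraries. IRF9, the DNA-binding subunit of ISGF3, had a mean FPKM under 1, from 67, 143, 118 and 138 counts. Its log2 ratio was 1.03 (0.60 to 1.47) in the unstimulated pair and 0.31 (-0.06 to 0.67) in the PHA pair, where a difference was not detectable at this depth. Reads of IRF9 may be shared with a locus that overlaps it in these tables.

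IRF7, the inducer of the interferon alpha genes, also had a mean FPKM under 1 and 31, 151, 59 and 165 counts. It was higher with JQ1 by a log2 ratio of 2.22 (1.65 to 2.83) in the unstimulated pair and 1.56 (1.13 to 2.02) in the PHA pair. IRF1, an activator of ISRE-containing genes, had an FPKM of 3.46, 3.69, 3.51 and 3.83. No JQ1 difference in IRF1 was detectable at this depth, with log2 ratios of 0.09 (-0.04 to 0.23) and 0.13 (-0.01 to 0.26). IRF2, which competes with IRF1 for the same sites, had an FPKM of 6.25, 7.01, 8.21 and 7.45, and its intervals included 0 in both JQ1 comparisons.

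The RNA-binding and RNA-degrading effectors were split. The OAS enzymes, which make oligoadenylates that switch on RNase L, lie side by side on chromosome 12 from 112906777 to 113011723. OAS3 (ENSG00000111331) had an FPKM of 4.58, 0.915, 4.39 and 1.02 from 971, 203, 975 and 214 counts. Its log2 ratio was -2.32 (-2.55 to -2.1) in the unstimulated pair and -2.11 (-2.33 to -1.89) in the PHA pair. OAS2, with an FPKM of 5.09, 3.03, 6.72 and 3.20, passed 2-fold only with PHA, at -1.07 (-1.21 to -0.93), and had -0.75 (-0.89 to -0.60) without it. Its FPKM ratio with PHA, -1.05, was short of 2-fold under edgeR and DESeq2 scaling, at -0.998 and -0.989. OAS1, under a mean FPKM of 1, had 88, 37, 104 and 25 counts, and OASL, an OAS-like protein without that activity, had 53, 18, 68 and 23. All 4 genes thus had lower shares in the JQ1 library of each pair.

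EIF2AK2 (PKR), the kinase that halts translation through eIF2α, had an FPKM of 9.10, 4.86, 7.72 and 4.90. Both JQ1 libraries were lower, short of 2-fold. ISG20, an exonuclease, had a mean FPKM under 1 and 126, 88, 150 and 58 counts. ADAR, which edits adenosine to inosine in double-stranded RNA, had an FPKM of 45.2, 47.1, 43.5 and 48.9 from at least 13240 counts in each library.

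The IFIT genes, whose proteins bind foreign RNA and hold back its translation, form a cluster on chromosome 10 from 89301955 to 89421001. IFIT1 had an FPKM of 1.37, 1.69, 0.932 and 1.54, and IFIT2 had 1.61, 1.26, 1.92 and 1.43. IFIT3 had 1.99, 2.18, 1.83 and 2.1, and IFIT5 had 9.89, 8.64, 8.62 and 8.64. None of the 4 passed 2-fold with JQ1. IFIT2 was lower in both JQ1 comparisons by its intervals and the other 3 were not. By its interval IFIT1 was higher with JQ1 in the PHA pair, at a log2 ratio of 0.72 (0.38 to 1.07). In the coordinates of the tables IFIT1, IFIT2 and IFIT3 lie within the span of LIPA, so reads of that locus may be shared.

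The ISG15 system also divided. USP18 (ENSG00000184979, chr22:18149899-18177397), the protease that removes ISG15 and restrains the interferon receptor, had FPKM values of 13.7, 5.11, 11.0 and 4.57. It fell with JQ1 by a log2 ratio of -1.43 (-1.66 to -1.20) and -1.27 (-1.52 to -1.02), without and with PHA. A near-identical copy of this gene, USP41, may share its reads. ISG15 itself had an FPKM of 5.70, 7.61, 6.04 and 7.32, and both JQ1 libraries were above both DMSO libraries. HERC5, the ligase that attaches ISG15, had 5.89, 7.21, 4.86 and 6.57, again with both JQ1 libraries above both DMSO libraries. HERC6, its neighbour on chromosome 4 and a relative in sequence, had a mean FPKM under 1, and its 138, 32, 140 and 37 counts were lower with JQ1. HERC5 and HERC6 thus moved in opposite directions from adjacent positions.

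Among the members that block entry, release or the capsid, BST2 (tetherin, ENSG00000130303, chr19:17402939-17405648), which ties budding virions to the cell surface, had an FPKM of 86.4, 34.5, 65.9 and 30.01. Both JQ1 libraries were lower, with log2 ratios of -1.32 (-1.43 to -1.22) in the unstimulated pair and -1.13 (-1.25 to -1.02) in the PHA pair. The IFITM genes, which stiffen membranes against fusion, lie together on chromosome 11 from 307631 to 327537. IFITM1 had an FPKM of 13.5, 6.85, 15.4 and 6.79 and passed 2-fold with PHA, at -1.18 (-1.39 to -0.97), and not without it, at -0.98 (-1.19 to -0.77). IFITM2 had 4.98, 2.44, 5.93 and 3.30. Without PHA its log2 ratio of FPKM, -0.9999, was just short of 2-fold, while its count share was 2.04-fold lower. IFITM3, under a mean FPKM of 1, had 45, 16, 66 and 20 counts. All 3 were lower with JQ1 by intervals that excluded 0 in both comparisons. IFITM1 lies within the span that the tables give IFITM2, and the 3 are close paralogs, so their reads may be shared.

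The other members grouped with these, not all of them directed at capsids, showed no common direction. MX2, a GTPase that blocks nuclear entry of HIV, was just under a mean FPKM of 1 and had 89, 442, 246 and 455 counts, so its share with JQ1 was higher, by 4.75-fold in unstimulated cells and by 1.96-fold in PHA-treated cells. MX1, its neighbour on chromosome 21, was at the floor. TRIM5, which recognises retroviral capsids, had an FPKM of 1.21, 1.72, 1.57 and 1.70. TRIM22, listed inside the span of TRIM5, had 38, 16, 50 and 4 counts, lower with JQ1. TRIM25, the ubiquitin ligase that acts on RIG-I, had an FPKM of 14.1, 13.4, 12.5 and 11.4.

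GBP1 (ENSG00000117228, chr1:89052319-89065360), a guanylate-binding GTPase that coats intracellular pathogens, showed the steepest fall among the 34. Its FPKM values were 5.94, 1.02, 7.42 and 1.04, from 835, 150, 1091 and 145 counts. The log2 ratio was -2.54 (-2.80 to -2.29) in the unstimulated pair and -2.83 (-3.09 to -2.58) in the PHA pair. GBP2, the adjacent gene, had 1, 1, 111 and 1 counts, so it was present above the floor with DMSO + PHA alone. Its log2 ratio with JQ1 in the presence of PHA was -6.71 (-12.03 to -4.21). RSAD2 (viperin), which makes a chain-terminating nucleotide, had an FPKM of 3.15, 3.13, 2.07 and 2.85, with no fall under JQ1. By its interval RSAD2 was higher with JQ1 in the PHA pair, at a log2 ratio of 0.46 (0.21 to 0.72). It overlaps CMPK2 by 830 bases in the tables.

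In the nuclear-body group, PML, the scaffold of these bodies, had an FPKM of 1.69, 1.72, 1.45 and 1.55. SP100, another resident, had 2.43, 1.75, 3.48 and 1.86, lower with JQ1. SP110, of the same family, had 5.59, 7.49, 6.98 and 8.46, higher with JQ1. None passed 2-fold, and the SP100 and SP110 intervals excluded 0 in opposite directions in both comparisons.

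Among the ADP-ribosyltransferases, PARP14 (ENSG00000173193, chr3:122680618-122730840) had an FPKM of 3.38, 1.03, 3.79 and 0.902. Its log2 ratio was -1.71 (-1.90 to -1.52) in the unstimulated pair and -2.07 (-2.28 to -1.87) in the PHA pair. PARP9, which forms with DTX3L a complex that marks chromatin, had 2.94, 1.24, 2.82 and 1.58, and passed 2-fold without PHA, at -1.24 (-1.44 to -1.05), and not with it, at -0.83 (-1.02 to -0.65). DTX3L, the ubiquitin ligase of that pair, had an FPKM of 12.7, 6.89, 13.8 and 6.98. The 3 genes lie close together on chromosome 3, and each was lower in both JQ1 libraries. PARP12, an enzyme that acts on the Golgi and on translation and lies on chromosome 7, had 3.24, 3.06, 2.94 and 3.24, with intervals that included 0 in both comparisons.

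XAF1 (ENSG00000132530, chr17:6755447-6775647), a pro-apoptotic partner of XIAP, had an FPKM of 4.49, 1.77, 8.43 and 1.91 from 1123, 462, 2208 and 473 counts. It fell with JQ1 by a log2 ratio of -1.35 (-1.51 to -1.19) in the unstimulated pair and -2.14 (-2.29 to -2.0) in the PHA pair. IFI44, a cytoplasmic protein that restrains proliferation, had 2.96, 1.35, 3.31 and 1.43. The IFI44 ratio was -1.13 (-1.49 to -0.78) and -1.21 (-1.56 to -0.87). IFI6, a protein of the endoplasmic reticulum and mitochondria, had 3.76, 4.37, 3.27 and 4.14, and no JQ1 difference was detectable at this depth. Under a mean FPKM of 1, IFI27 had 25, 28, 34 and 52 counts and IFI35 had 56, 35, 58 and 46.

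**Figure D3:**
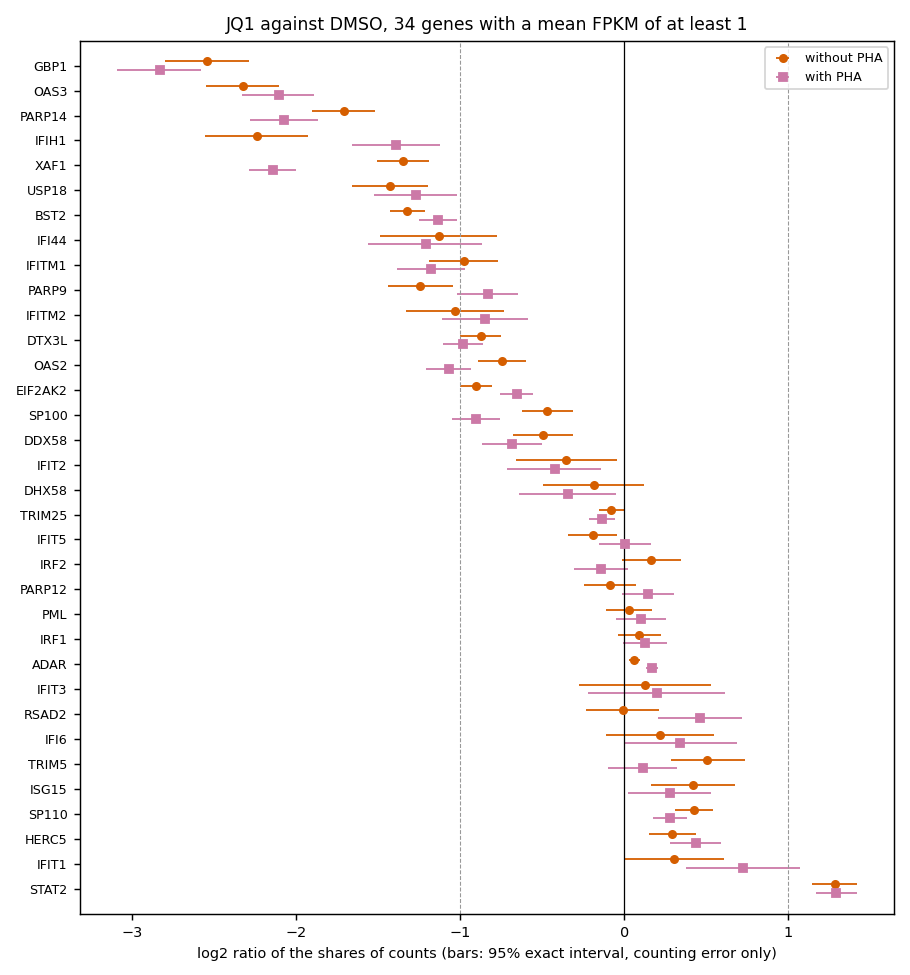
Log2 ratio of the count shares, JQ1 against DMSO (horizontal axis), without PHA (circles) and with PHA (squares) for the 34 members with a mean FPKM of at least 1, with bars for 95% exact intervals of counting error and dashed lines at 2-fold. Farthest to the left lie GBP1, OAS3, IFIH1 and PARP14 without PHA, and GBP1, XAF1, OAS3 and PARP14 with PHA. STAT2 alone lies past 2-fold on the right in both comparisons.

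The members were also described by the presence of the ISRE core, with no test of a difference. Of the 27 members with a promoter window among the 34, 19 had a core and 8 did not. Among the 19, 7 were at least 2-fold lower with JQ1 and 0 higher, both without and with PHA, with medians of -0.87 and -0.65. Among the 8, 1 was lower, XAF1, and 1 higher, STAT2, in each comparison, with medians of -0.01 and -0.01. Of all genes, with or without a core, 8.65% and 8% were lower. The ratios of the 19 ran from -2.43 for GBP1 to 0.47 for TRIM5 without PHA, so the core was found in members that fell, stayed level and rose. A match is a description, and no match says only that the letters are not in that window.

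**Figure D4:**
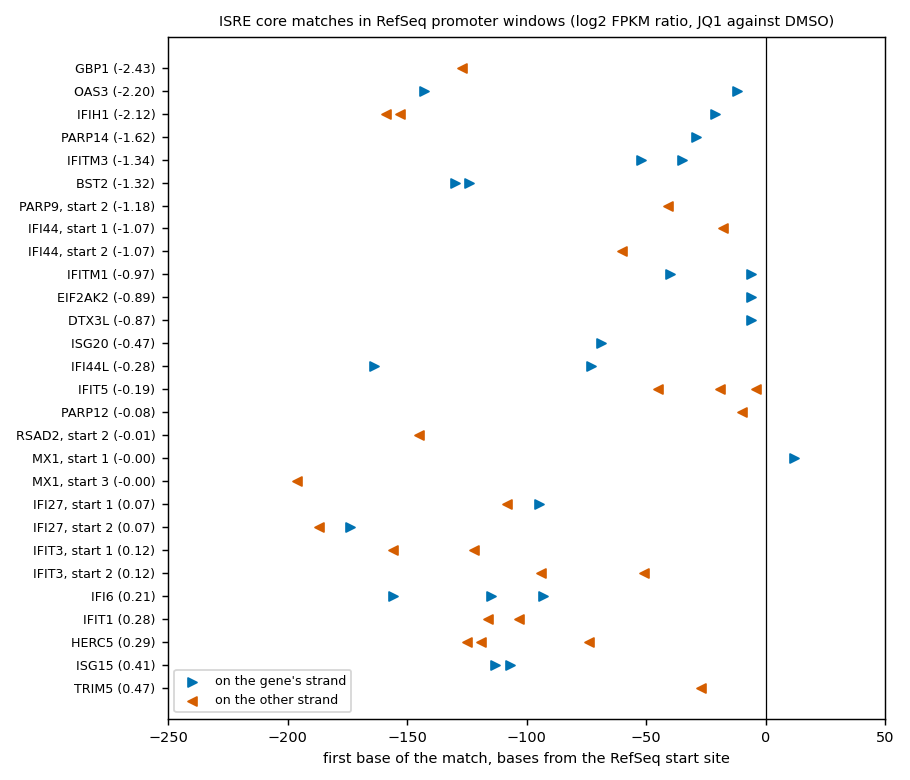
First base of each ISRE core match relative to the RefSeq start site (horizontal axis, bases) in the member windows that hold one, ordered by the log2 ratio of FPKM, JQ1 against DMSO, given in brackets. Triangles point right for a match on the gene's strand and left for the other strand, and matches appear in rows from GBP1 at -2.43 to TRIM5 at 0.47.

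PHA was compared with no PHA to see whether T-cell activation moved these genes. Each PHA comparison shares its libraries with the JQ1 comparisons. In DMSO-treated cells 0 of the 34 members were at least 2-fold higher and 0 lower, where 2.1% and 1.19% of all genes were. In JQ1-treated cells the counts were again 0 and 0, against 1.04% and 1.03%. The member medians were 0.05 and 0.02. By intervals, 12 were higher and 10 lower in DMSO-treated cells, beside 24.7% and 25.1% of all genes. In JQ1-treated cells 6 were higher and 3 lower, beside 15.6% and 15.7%.

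XAF1 showed the largest PHA ratio among the 34 in DMSO-treated cells, 0.91 (0.81 to 1.02), a 1.88-fold higher share. In JQ1-treated cells its ratio was 0.11 (-0.07 to 0.30). The PHA log2 ratio of GBP2, under the filter, was 6.73 (4.22 to 12.05) in DMSO-treated cells, from 111 counts against 1. MX2 was 2.64-fold higher with PHA in DMSO-treated cells and 1.09-fold in JQ1-treated cells. STAT2 was slightly higher with PHA in both, at 0.20 (0.04 to 0.36) and 0.21 (0.11 to 0.31). IRF7 had 0.86 (0.21 to 1.54) and 0.21 (-0.12 to 0.54), and IRF9 had 0.75 (0.31 to 1.21) and 0.03 (-0.32 to 0.38). IRF1 did not differ detectably, at 0.02 (-0.12 to 0.15) and 0.05 (-0.08 to 0.18). By their intervals, 3 members were higher with PHA in both treatments (STAT2, IFITM2 and SP110) and 3 were lower (BST2, TRIM25 and PML).

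**Figure D5:**
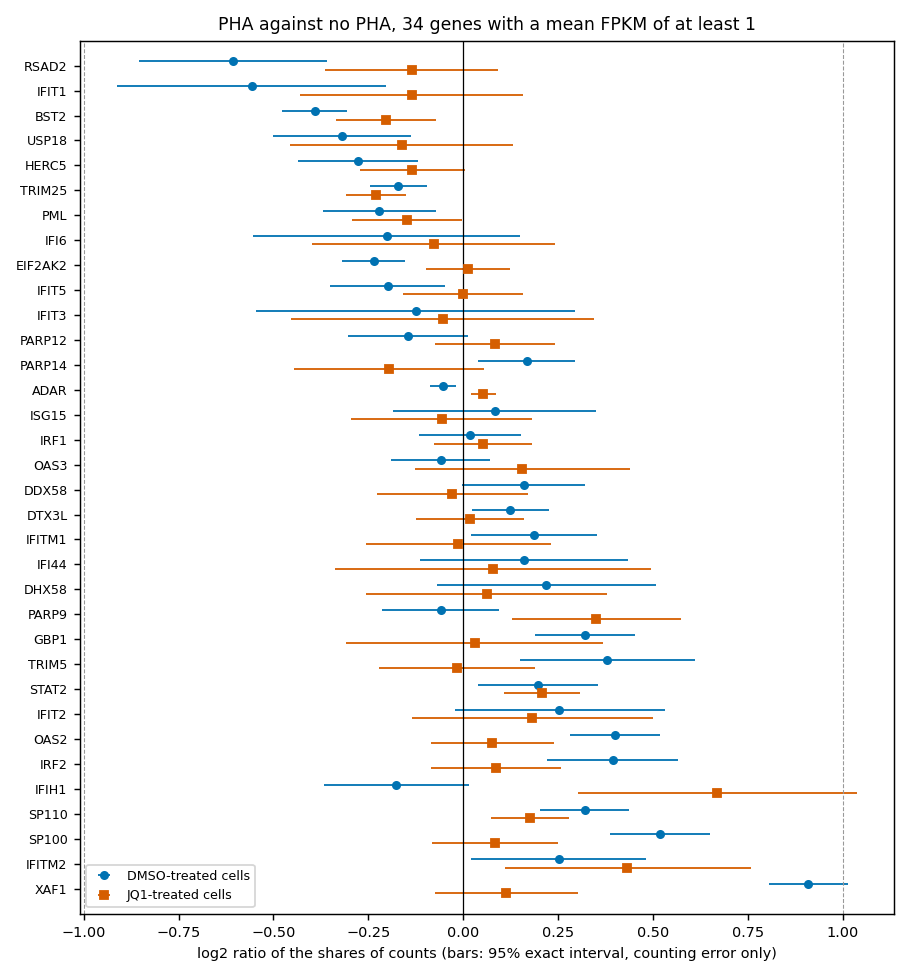
Log2 ratio of the count shares, PHA against no PHA (horizontal axis), in DMSO-treated cells (circles) and JQ1-treated cells (squares) for the 34 members, with bars for 95% exact intervals of counting error and dashed lines at 2-fold. All points lie between the 2-fold lines, and XAF1 in DMSO-treated cells at 0.91 is nearest to one.

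The other genes of the pathway were taken from a list of 89 that were not members, of which 43 had a mean FPKM of at least 1. All 22 interferon genes in the list had 0 counts in every library, which allows at most 0.152 to 0.161 CPM. The receptor chains were present. IFNAR1 had an FPKM of 21.4, 24.6, 22.6 and 24.4, and IFNAR2 had 10.6, 13.5, 13.9 and 13.7. The interferon gamma chain IFNGR1 had 9.0, 15.6, 9.31 and 16.6, higher with JQ1, and IFNGR2 had 4.45, 3.49, 3.94 and 2.84, lower with JQ1. IL10RB, a chain of the interferon lambda receptor, had 5.14, 7.60, 6.37 and 7.91, and its partner IFNLR1 was under a mean FPKM of 1, with 86, 29, 133 and 67 counts.

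JAK1, the kinase shared by these receptors, had an FPKM of 19.4, 52.0, 25.4 and 56.3. Its log2 ratio with JQ1 was 1.42 (1.36 to 1.49) in the unstimulated pair and 1.15 (1.09 to 1.21) in the PHA pair. TYK2 had 6.09, 5.61, 5.48 and 5.85, and JAK2, which serves the gamma receptor, had 4.44, 4.57, 4.84 and 5.54. The kinase JAK1 was thus higher with JQ1 in both comparisons, as STAT2 was.

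Without PHA, 3 of the 43 other pathway genes rose past 2-fold with JQ1 (JAK1, TMEM173 and TRIM56) and 7 were lower (MAVS, CMPK2, TRIM14, UBE2L6, PNPT1, GBP3 and LGALS9), with a median of 0.04, beside 5.22% and 8.65% of all genes. With PHA, 1 was higher (JAK1) and 6 were lower (MYD88, TRIM14, UBE2L6, PNPT1, GBP3 and LGALS9), with a median of -0.21, beside 3.69% and 8% of all genes. The upward counts are near the background. UBE2L6, the conjugating enzyme for ISG15, had an FPKM of 12.8, 4.01, 10.2 and 4.33. GBP3, a paralog of GBP1 that may share reads with it, had 1.85, 0.745, 2.35 and 0.797. TRIM14, an adaptor of MAVS, had 18.5, 6.25, 13.1 and 5.90. In UBE2L6, GBP3 and TRIM14 both JQ1 libraries were below both DMSO libraries.

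MAVS, the adaptor through which IFIH1 and DDX58 signal, had an FPKM of 6.61, 2.40, 6.50 and 5.62, so the JQ1 library without PHA was the low one. MYD88, the adaptor of Toll-like receptors, had 5.50, 4.69, 6.57 and 1.93, with JQ1 + PHA the low one. TRIM56, a ubiquitin ligase of the STING pathway, had 1.51, 10.3, 10.2 and 9.89, with DMSO the low one. Each of these 3 genes rests on a single library that stands apart from the other 3. TMEM173 (STING) had 1.85, 4.41, 2.33 and 4.33, higher in both JQ1 libraries. PNPT1, an RNA exonuclease of mitochondria, had 18.9, 7.81, 17.7 and 7.47, LGALS9, a galectin, had 2.31, 0.646, 3.37 and 0.713, and CMPK2, a nucleotide kinase, had 5.12, 2.33, 3.6 and 1.94.

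With PHA, 4 of the 43 were at least 2-fold higher in DMSO-treated cells (PTPN6, TRIM56, C19orf66 and TNFSF10) and 0 lower, where the shares of all genes were 2.1% and 1.19%. In JQ1-treated cells 1 was higher (MAVS) and 1 lower (MYD88), and of all genes 1.04% and 1.03% were. PTPN6, a phosphatase that restrains JAK signalling, had an FPKM of 4.04, 2.85, 8.73 and 5.07. TNFSF10 (TRAIL), a death ligand, had 1.24, 1.16, 2.65 and 1.33, and C19orf66, an inhibitor of viral frameshifting, had 1.04, 1.39, 2.46 and 1.66. TNFSF10 and C19orf66 were highest in the DMSO + PHA library.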

How the data were processed

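RNA-seq of Jurkat cells was done by the authors on 1 library per condition, 4 in all. Per the labels and the submitters' processing notes, reads were aligned to GRCh38 with Hisat2 2.0.4, and TopHat2 2.0.9 and Cufflinks 2.1.1 are also named, with no roles given. The labels and the study's methods name different library kits, of which 1 is stranded. The counting program, its strand setting, its treatment of reads with several alignments and the annotation release are not given in the sources used here. The authors deposited raw read counts per gene, not normalized, and FPKM per gene. In 12689 genes (20 counts or more in each library) the deposited FPKM was the count over length and library total, the length implied being equal between libraries within a relative spread of 4.65e-05.

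Genes were matched by symbol. Log2 ratios of FPKM used a pseudocount of 0.1 for the 11503 genes reaching a mean FPKM of 1, and genes past 2-fold were counted. Ratios of count shares carry 95% exact (Clopper-Pearson) intervals, and the floor is 3 counts. No test between conditions was made. The 4 comparisons set JQ1 against DMSO without and with PHA, and PHA against no PHA in DMSO-treated and JQ1-treated cells. The members and the gene lists were chosen with earlier results of these data known. Values are given for every member, with ratios for members past 2-fold in at least 1 comparison and for STAT2, IRF9, IRF1 and IRF7. Members under the filter are given by counts. Other pathway genes are named where past 2-fold, or as interferons, receptor chains or kinases. Some results that need items withheld for evaluation are left out. Ratios and intervals of GBP2, MX2 and of members described as higher or lower by intervals were added after their values were seen. Alternatives were the pseudocount, the filter, the fold threshold and the scaling. Promoter sequences are RefSeq's on GRCh38.p14, and 12 members had no entry. Scripts were tested on simulated data. Tools were R 4.3.3, in which edgeR 4.0.16 and DESeq2 1.42.0 gave scaling factors alone, and Python 3.11.15 (scipy 1.17.1, pandas 2.3.3, numpy 2.4.6, matplotlib 3.10.9).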

Additional observations from a re-analysis of the deposited data

Results flagged for a closer look

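ADAR was singled out because PHA moved it in opposite directions in DMSO-treated and JQ1-treated cells. Its log2 ratio of count shares was -0.053 in DMSO-treated cells and 0.054 in JQ1-treated cells, and both 95% exact intervals excluded 0. The difference between these ratios was not tested, since each condition is 1 library, and both ratios are small for a gene with at least 13240 counts in each library. The signs held under the other scalings, with log2 ratios of FPKM from -0.068 to -0.017 in DMSO-treated cells and from 0.039 to 0.066 in JQ1-treated cells.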

How the results depend on the processing

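Of 250 values recomputed under alternatives, 216 stayed near the reported value. For a count of members near meant equal, also where both were 0, or within a factor of 1.5. For a ratio of a gene it meant within the half-width of its interval, and for a median within the median half-width. Of the 126 ratios of single genes past 2-fold, 0 changed sign, which these alternatives could hardly have produced. A pseudocount cannot change a sign, and the scalings shifted ratios by far less than 2-fold. Some member ratios close to 0 changed sign with the scaling, such as RSAD2, JQ1 against DMSO, from -0.009 to 0.059. Counts of members moved with the thresholds, as did the shares of all genes given in brackets. With a fold of 1.5, 14 members (19.3%) were lower with JQ1 without PHA and 16 (17.8%) with PHA, 2 (11.7%) were higher in the latter, and with PHA treatment 1 was higher in DMSO-treated cells (5.59%) and 1 in JQ1-treated cells (2.58%). With a fold of 3, 4 were lower in each JQ1 comparison (3.10% and 2.78%) and 0 higher (1.43% and 1.09%). With a mean FPKM of at least 0.1, JQ1 without PHA had 3 higher (8.24%), JQ1 with PHA had 2 higher (6.35%) and 17 lower (12.6%), and PHA in DMSO-treated cells had 2 higher (5.27%). With no filter the counts were the same, 3 (3.82%), 2 (3.10%), 17 (5.75%) and 2 (2.96%). With a mean FPKM of at least 5, which leaves fewer members, 2 and 3 were lower (6.52% and 5.68%), and the median with PHA was -0.14.

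The 14 ratios of single genes that moved did so with a pseudocount of 1, which shrinks low values. It took the members lower with JQ1 from 9 to 6 without PHA and from 10 to 7 with PHA (5.01% and 4.60% of all genes). Calls ended for IFI44 (-0.75 and -0.83), XAF1 without PHA (-0.99), PARP9 without PHA (-0.81), IFIH1 with PHA (-0.98) and OAS2 with PHA (-0.88). The shares of counts, which need no pseudocount, are those given for these genes in the comparisons. With a pseudocount of 0.01, 10 members were lower with JQ1 without PHA in place of 9 (9.15% of all genes). Under edgeR and DESeq2 scaling 9 members were lower with PHA in place of 10, without OAS2. Other scalings changed no count of members past 2-fold, and the median of all genes lay at most 0.058 above 0.

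No paired analysis was possible because the groups share fewer than 2 replicate numbers, each condition being 1 library, which also leaves no replicate to drop. A model with JQ1 and PHA as additive terms over the 4 libraries was not fitted. Depth limits the members under a mean FPKM of 1, and MX1, SAMHD1 and IFI44L were too low to compare.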
